A study of Daphnia magna with 2 samples.

Results

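Library Y2 of the young Daphnia magna sample was set against libraries CH1 and CH2 of the same sample. Daphnia magna, a water flea, is a small freshwater crustacean, and its single cells were profiled here with inDrops. In inDrops, a cell is enclosed in a droplet with a bead whose primers tag its polyA RNA. One part of the tag, the barcode, marks the droplet, and the other, the UMI, marks the single molecule, so that copies of 1 molecule can be counted once. Per the labels, whole bodies were dissociated with collagenase, and the title of the sample names only young animals and collagenase. The 3 codes come from the deposited barcode list, which does not spell out what Y2, CH1 or CH2 stands for. Genotype, strain, treatment, sex and the number of pooled animals are not stated for any of the 3. Barcodes with at least 500 UMIs were kept, which left 557 barcodes of Y2, 830 of CH1 and 712 of CH2. These are 2099 of the 4352 barcodes kept at that minimum in the whole series, the other 2253 being from the mixed sample. Differences of animals, handling and sequencing between Y2 and the CH libraries cannot be told apart, and with 1 library on one side there is no replicate check. All values below therefore describe these 3 libraries, and their intervals cover counting error only.

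In droplet methods, RNA from broken cells floats in the suspension and enters droplets with and without a cell. Barcodes with very few UMIs carry mostly such free RNA, and a barcode just above a minimum can do so too. The comparison is therefore also given for larger barcodes and for barcodes under 100 UMIs.

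Y2 was the shallowest library. Its kept barcodes held 524782 UMIs, against 946359 in CH1 and 843209 in CH2. The median kept barcode held 674 UMIs in Y2, 867.5 in CH1 and 911 in CH2. In Y2, 145 barcodes (26%, exact 95% interval 22.4 to 29.9) reached 1000 UMIs, against 341 (41.1%) in CH1 and 321 (45.1%) in CH2. After thinning each barcode to 500 UMIs, the median number of genes was 307 in Y2, 339 in CH1 and 340 in CH2. Near the minimum, 272 barcodes of the 3 libraries held 500 to 549 UMIs and 370 held 450 to under 500.

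CH1 and CH2 may not be independent of each other. The barcode list numbers barcodes and gives no sequence, so a barcode was matched by its place within its library. At the same place, 2 barcodes were kept in both Y2 and CH1, none in both Y2 and CH2, and 96 in both CH1 and CH2. These 96 are 11.6% of the kept barcodes of CH1 and 13.5% of those of CH2. The profiles at the same place in CH1 and CH2 had a median Pearson correlation of 0.471 over 500 variable genes, against -0.0414 for other pairs. For 49 of the 96 CH1 barcodes, the best match among these CH2 barcodes was the one at the same place. The counts of genes called in Y2 are given below with and without these barcodes, and the comparison of CH1 with CH2 only with them.

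A gene was compared when it had at least 50 counts over the 3 sums of kept barcodes. There were 5638 such genes, 3730 of which carry a gene symbol in the deposited list; 207 had 50 to 54 counts, and 240 genes just outside had 45 to 49. Levels are CPM, the counts scaled to a library sum of 1000000, and a ratio uses the level of Y2 over the mean of CH1 and CH2, on the log2 scale. A gene was called when Y2 lay at least 4-fold above, or at least 4-fold below, both CH1 and CH2. A gene is written as its human symbol, a slash and its fly symbol where the list has both, followed by its identifier. The roles given for them are those known in human or in Drosophila and were not examined in Daphnia.

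Y2 differed from CH1 and CH2 far more than these did from each other. Of the 5638 genes, 193 were higher in Y2 (3.42%) and 398 were lower (7.06%). Between CH1 and CH2, 28 genes (0.497%) were at least 4-fold above in CH1 and 13 (0.231%) at least 4-fold below. Across the 5638 genes, levels on log2(CPM + 1) correlated at 0.623 between Y2 and CH1 and at 0.589 between Y2 and CH2, against 0.942 between CH1 and CH2. The values between CH1 and CH2 include the barcodes kept at the same place in both. If these are shared cells, they make CH1 and CH2 more alike. The median log2 ratio over all genes was -0.56. Y2 was below both other libraries for 3513 genes and above both for 1729. The genes higher in Y2 took 9.74% of the kept UMIs of Y2, against 1.59% in CH1 and 1.35% in CH2. When the calls were made against CH2 alone, without CH1, that share of Y2 was 25.1%. The genes lower in Y2 took 1.38% in Y2, against 9.91% in CH1 and 10.8% in CH2. Without the barcodes kept at the same place in CH1 and CH2, an alternative chosen after seeing the data, 162 genes were higher (3.05%) and 345 lower (6.49%). The split between directions depended on the scaling, on the filters and on the library compared with. Higher genes made up 32.7% of the calls with plain totals and 45.3% with TMM scaling, under which 281 were higher and 339 lower. Against CH2 alone, without CH1, 361 genes were higher and 345 lower, and higher genes made up 51.1% of the calls.

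**Figure D1:**
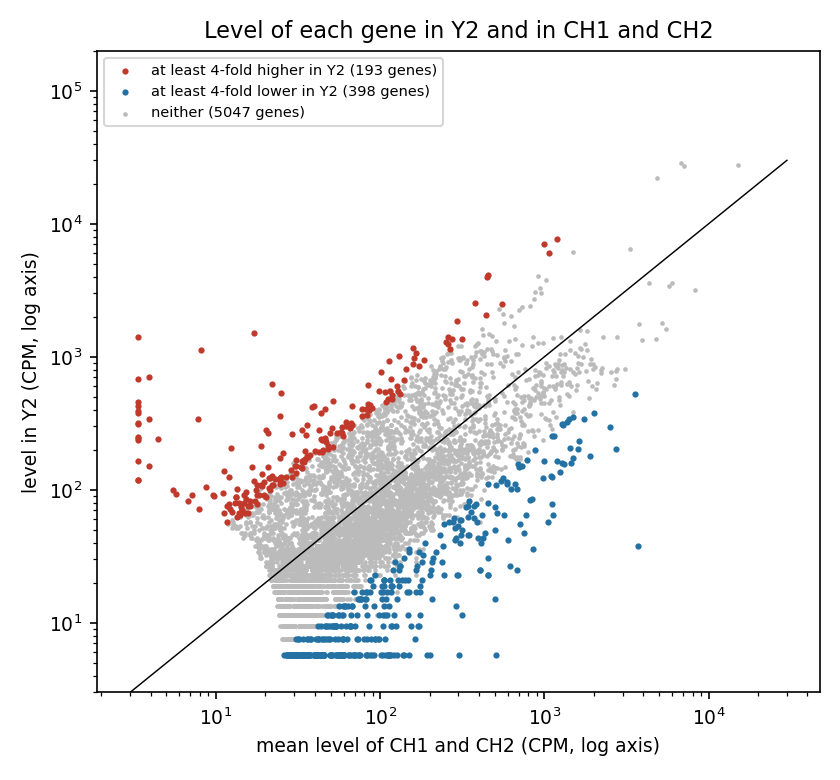
Level of each of the 5638 genes in Y2 (vertical axis) and mean level of CH1 and CH2 (horizontal axis), both in CPM on log axes, over barcodes of at least 500 UMIs; a count under 3 is drawn at 3, and the line marks equal levels. The 193 higher genes (red) reach furthest from the line at low levels in CH1 and CH2, and many of the 398 lower genes (blue) lie at the floor of Y2, 5.72 CPM.

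The comparison was repeated with barcodes of at least 1000 UMIs. These are part of the barcodes kept at 500 UMIs and hold 257210 of the 524782 UMIs of Y2. The repeat thus reuses counts behind the calls, and a gene staying on its side is no separate result. Of 4648 genes then compared, 142 were higher in Y2 (3.06%) and 222 lower (4.78%), with -0.24 as the median log2 ratio over all of them. Of the 193 higher genes, 65 had too few counts left, every other one was on the same side and 96 were called again. The median log2 ratio of those compared was 2.51 at 500 UMIs and 2.57 at 1000. Of the 398 lower genes, 336 could be compared, 331 were on the same side and 188 were called again, with medians of -2.81 at 500 UMIs and -2.29 at 1000. Lower minima moved the higher calls more. At 300 UMIs, 88 genes were higher and 70 of the 193 were called again, and with every listed barcode 104 were higher and 48 of the 193 were called again. Of the 398 lower genes, 358 were called again at 300 UMIs and 181 with every listed barcode.

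The share of UMIs in the 193 higher genes depended on barcode size, and not alike in Y2 and the CH libraries. In Y2 it was 10.1% in barcodes under 100 UMIs, 11.4% at 100 to under 200, 12.3% at 200 to under 500, 12.2% at 500 to under 1000, 8.44% at 1000 to under 2000 and 5.72% at 2000 or more. In CH1 the shares over the same sizes were 6.35%, 7.93%, 6.91%, 2.82%, 1.11% and 0.645%, and in CH2 they were 7.10%, 8.06%, 6.59%, 2.23%, 1.13% and 0.684%. Y2 was thus under 2-fold above both CH libraries in each size class below 500 UMIs and over 4-fold above both in each class from 500 UMIs on. The number of these UMIs per barcode grew with barcode size in Y2, and in CH1 and CH2 it did so only in barcodes under 500 UMIs. A barcode of 500 to under 1000 UMIs held a mean of 79.3 UMIs of these genes in Y2, against 19.6 in CH1 and 15.5 in CH2. At 2000 or more UMIs the means were 148 in Y2, 18.0 in CH1 and 18.8 in CH2. These shares use the same contrast as the calls and are a description.

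The 398 lower genes ran the other way. Their share in Y2 was 1.56% under 100 UMIs, 1.51% at 1000 to under 2000 and 2.06% at 2000 or more. In CH1 and CH2 it was 4.15% and 3.67% under 100 UMIs, and 10.7% and 11.9% at 1000 to under 2000.

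**Figure D2:**
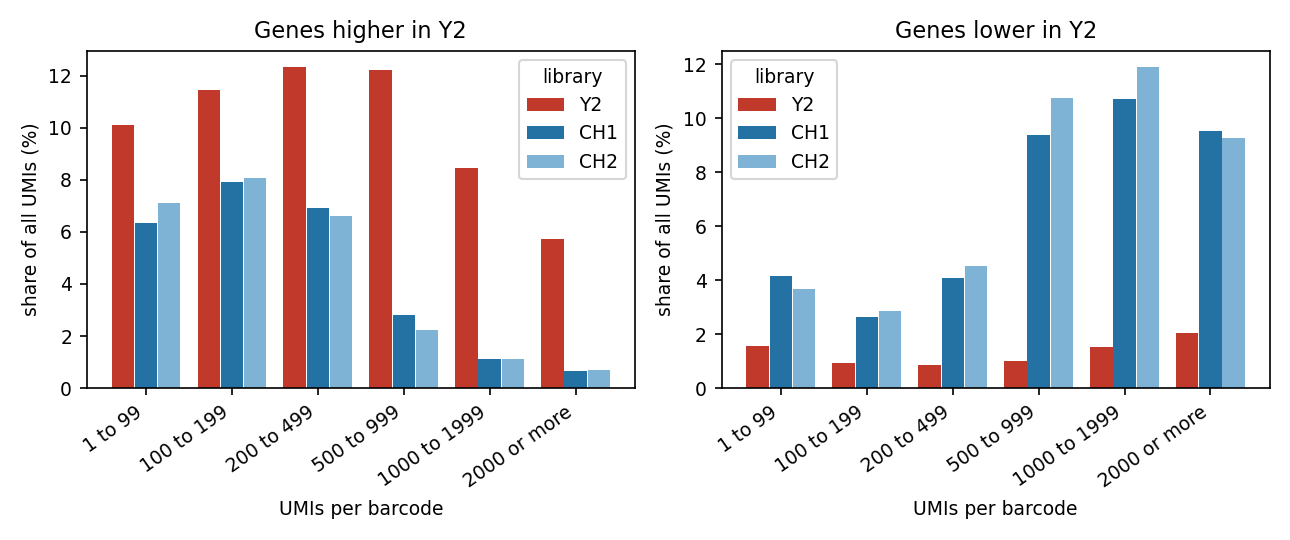
Share of all UMIs (%, vertical axis) held by the 193 genes higher in Y2 (left) and the 398 genes lower in Y2 (right), by UMIs per barcode (horizontal axis), in Y2, CH1 and CH2. In the left panel CH1 and CH2 drop below 3% from 500 UMIs on while Y2 keeps 12.2% at 500 to under 1000; in the right panel Y2 stays near 1 to 2% in every size class.

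Barcodes under 100 UMIs were then compared on their own. Of 5427 genes with enough counts there, 106 were higher in Y2 (1.95%) and 89 lower (1.64%). Levels in these small barcodes correlated at 0.845 between Y2 and CH1, at 0.848 between Y2 and CH2 and at 0.974 between CH1 and CH2. The kept barcodes of Y2 correlated with its own small barcodes at 0.915, those of CH1 at 0.761 and those of CH2 at 0.673. Kept barcodes of Y2 were thus closest to the small barcodes of their library.

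The 193 higher genes differed in their ratio in small barcodes. Of the 186 with enough counts there, 127 lay within 2-fold of the mean of CH1 and CH2 in small barcodes, 46 were called higher in small barcodes as well, and 13 were neither. The 127 genes held 73.6% of the Y2 counts of all higher genes, and the 46 held 21.1%. The 127 had a median of 76.9% of their Y2 counts in the cluster numbered 0, described next, against 4.31% for the 46. Of the 398 lower genes, 317 had enough counts in small barcodes. There, 55 of them were called lower, 127 lay within 2-fold, and 289 had a negative ratio, with a median log2 ratio of -1.25. Over all 5427 genes compared in small barcodes the median was -0.04. The share of all genes within 2-fold there was not computed, so neither count of 127 is read as a trait of the called genes.

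**Figure D3:**
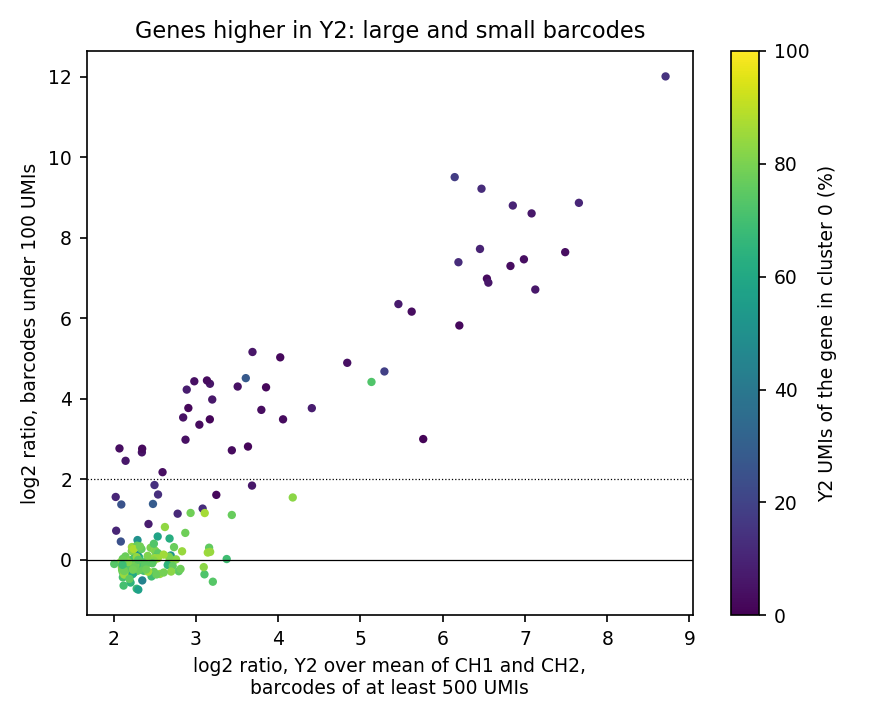
Log2 ratio of Y2 over the mean of CH1 and CH2 for the higher genes, in barcodes of at least 500 UMIs (horizontal axis) and in barcodes under 100 UMIs (vertical axis), for the 186 genes with enough counts in both; colour gives the share of the Y2 UMIs of a gene in cluster 0 (%). Most genes of high share in cluster 0 lie around a vertical value of 0, and most of those above the dotted line at 2 have a low share.

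Barcodes were clustered without the genes called higher or lower. Genes with smaller differences stayed in, so differences between the libraries could still shape the clusters. At 2-fold, 933 genes were higher and 1530 lower, the called ones among them. Of 23 clusters, cluster 0 held 316 of 557 barcodes of Y2 (56.7%, exact 95% interval 52.5 to 60.9), 67 of 830 of CH1 (8.07%, 6.31 to 10.1) and 31 of 712 of CH2 (4.35%, 2.98 to 6.12). It is not named, because only 5 markers of its best list were counted. Its barcodes were small, with median UMIs of 615 in Y2, 615 in CH1 and 577 in CH2, and 26 of the Y2 barcodes in it reached 1000 UMIs. Its profile, summed over the libraries, correlated with the barcodes under 100 UMIs of Y2 at 0.799, of CH1 at 0.806 and of CH2 at 0.838, more closely than that of any other cluster. Within cluster 0 the higher genes took 14.6% of the UMIs of Y2, 9.45% of those of CH1 and 9.61% of those of CH2. In cluster 2, the other cluster with at least 30 barcodes on each side, they took 3.05% in Y2, 1.21% in CH1 and 1.18% in CH2.

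Leaving out cluster 0, which was decided once the clusters were known, left 241 barcodes of Y2, 763 of CH1 and 681 of CH2. Of 5416 genes then compared, 121 were higher in Y2 (2.23%) and 198 lower (3.66%), with a median log2 ratio of -0.10 over all. Of the 193 higher genes, 149 could be compared and 70 were called again, and of the 398 lower genes 397 could be compared and 192 were called again. All 44 of the genes called also in small barcodes that could be compared were again higher, against 9 of 86 of those within 2-fold in small barcodes. This largely follows from where their Y2 counts lay, with medians of 4.31% and 76.9% in cluster 0, and is no separate result.

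Clusters other than 0 were unevenly filled as well. Cluster 1 held 7 barcodes of Y2, 135 of CH1 and 122 of CH2, cluster 5 held 2, 47 and 70, and cluster 9 held 1, 32 and 42. Cluster 21 held 13 barcodes, all of Y2, so a share up to 0.443% in CH1 and 0.517% in CH2 lies within counting error. It had 4 counted cuticle markers and stays unnamed. A cluster of 1 library alone may mark the library rather than a type.

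Barcodes with markers of known tissues were found in all 3 libraries, as 6 named clusters. The other 17 stay unnamed. The cluster named from sarcomere markers held 7 barcodes of Y2 (1.26%), 1 of CH1 (0.120%) and 2 of CH2 (0.281%). The one named from cuticle and epidermis markers held 23 (4.13%), 18 (2.17%) and 20 (2.81%). Neuron markers named a cluster of 7, 14 and 9 barcodes, germline markers one of 7, 15 and 12, basement membrane and hemocyte markers one of 14, 18 and 13, and ion transport markers one of 10, 8 and 5. When barcodes of at least 1000 UMIs were clustered alone, the classes named by the same rule held other barcodes. The cluster that met the rule for sarcomere markers held 29 of 145 in Y2 (20%, 13.8 to 27.4), against 2 of 341 in CH1 (0.587%) and 3 of 321 in CH2 (0.935%). Of its 29 Y2 barcodes, 26 were in cluster 0 at 500 UMIs and 2 in the sarcomere-like cluster. Its profile was also the nearest to the barcodes under 100 UMIs, at a correlation of 0.659 in Y2, 0.684 in CH1 and 0.706 in CH2, so its share is not read as one of muscle cells. Cuticle-like barcodes were then 18 of 145 in Y2 (12.4%), 14 of 341 in CH1 (4.11%) and 19 of 321 in CH2 (5.92%). Of the 18 in Y2, 10 came from the cuticle-like cluster and 8 from cluster 21.

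**Figure D4:**
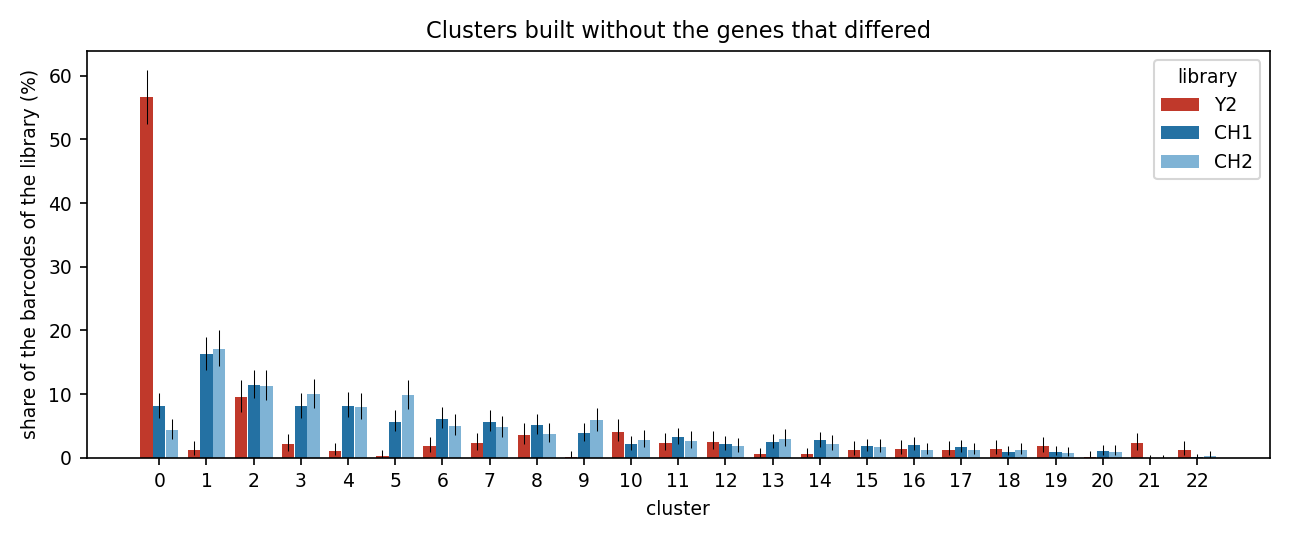
Share of the kept barcodes of each library (%, vertical axis) in each of 23 clusters (horizontal axis), with exact 95% intervals as bars, for Y2, CH1 and CH2. Clusters were built without the genes called at least 4-fold higher or lower, and genes with smaller differences stayed in. Y2 has 56.7% of its barcodes in cluster 0, where CH1 has 8.07% and CH2 4.35%.

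Among the higher genes, the 5 with the most counts in Y2 were broadly spread over barcodes. PCGF2/PSC (DAPMA1EVG020577), named for Polycomb group proteins that keep genes silent, had 7643 CPM in Y2, against 1331 in CH1 and 1067 in CH2. That is 5.74 times the level of CH1 (95% interval 5.39 to 6.12) and 7.16 times that of CH2 (6.66 to 7.71). In barcodes under 100 UMIs its level was 7069 CPM in Y2, 6926 in CH1 and 7763 in CH2, so the 3 libraries were alike there. At 500 to under 1000 UMIs it was 11526 CPM in Y2, against 2816 in CH1 and 2249 in CH2, and at 2000 or more UMIs 874 CPM in Y2, against 280.0 and 245 CPM. It was counted in 79.2% of Y2 barcodes thinned to 500 UMIs, against 42.7% in CH1 and 36.5% in CH2, and 83.4% of its Y2 counts lay in cluster 0. Without cluster 0 its level was 2152 CPM in Y2, 841 in CH1 and 769 in CH2, and it was no longer called.

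The other 4 had the same course. HHEX/CG7920 (DAPMA1EVG014885), whose human and fly symbols name different proteins, had 7077 CPM in Y2, 1129 in CH1 and 860 in CH2. KCNB2/SHAB (DAPMA1EVG016065), a voltage-gated potassium channel of nerve and muscle, had 3956 CPM in Y2, 507 in CH1 and 388 in CH2. A pair of genes without a symbol followed, with 5993, 1201 and 936 CPM for m000042F_s7.60 and 4108, 511 and 400 CPM for s000014F_p19.31 in Y2, CH1 and CH2. All 4 were called again at 1000 UMIs, none was called in small barcodes, and none was called without cluster 0. Each had between 81.7% and 85.4% of its Y2 counts in cluster 0. KCNC1/SHAW (DAPMA1EVG020422), another potassium channel, was sparser, with 95.3 CPM in Y2, 12.7 in CH1 and 9.49 in CH2, and had 72.0% of its Y2 counts there; it had too few counts to be compared at 1000 UMIs or without cluster 0.

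Other higher genes had most of their Y2 counts in few barcodes, though some were counted in many. The highest ratio belonged to m000008F_s17.30, which has no symbol, with 739 counts in Y2, 0 in CH1 and 2 in CH2. Its level in Y2 was 1408 CPM, at least 444-fold higher than in CH1 when 3 counts are taken for the 0, and the ratio to CH2 was 594 (164 to 4912). Cluster 21 held 79.2% of its Y2 counts. The gene was counted in 135 barcodes of Y2, and the 10 with most of it held 73.1% of those counts. In barcodes under 100 UMIs it had 8243 CPM in Y2, against 0.677 in CH1 and 1.98 in CH2, and it was counted in every size class of Y2. DAPMA1EVG016034, also without a symbol, had 356 counts in Y2 and none in CH1 or CH2, which makes it at least 214-fold and 191-fold higher. A single Y2 barcode held 100 of those counts, and cluster 21 held 77.5%.

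SPINK1/FS (a000021F_p16.35), named for a trypsin inhibitor in human and for follistatin in fly, had 164 counts in Y2, 1 in CH1 and 0 in CH2. Its level in Y2 was 313 CPM, 296 times that of CH1 (52.3 to 11752) and at least 87.8-fold higher than in CH2. The 10 barcodes with most of it held 92.1% of its Y2 counts, and 59.1% lay in cluster 21.

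The next 4 genes had their largest share of Y2 counts in cluster 10 or 18. MYOT/ZORMIN (DAPMA1EVG029836), named for immunoglobulin-domain proteins of the muscle Z-disc, had 431 CPM in Y2, 38.0 in CH1 and 41.5 in CH2. It was 83.6% in cluster 10, the cuticle-like cluster, in Y2. POGZ/ROW (DAPMA1EVG031735), named for zinc finger proteins of chromatin, had 282 CPM in Y2, 16.9 in CH1 and 23.7 in CH2, and lay 85.1% in the same cluster. SPINT3/PPN (DAPMA1EVG029332), related to papilin of the extracellular matrix, had 261 CPM in Y2, 29.6 in CH1 and 28.5 in CH2. CHIT1/CHT10 (DAPMA1EVG019437), a chitinase that cuts chitin, had 91.5 CPM in Y2, 7.40 in CH1 and 11.9 in CH2. The largest share of both was in cluster 18, an unnamed cluster with 8 barcodes of Y2, 8 of CH1 and 9 of CH2, at 46.7% of the Y2 counts of SPINT3/PPN and 54.2% of those of CHIT1/CHT10. All 4 were higher again at 1000 UMIs and without cluster 0.

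Of the remaining higher genes with high ratios, SUSD2/MESH and THAP9 were thinly spread. SUSD2/MESH (DAPMA1EVG027034), named in fly for a septate junction protein of the gut, had 91.5 CPM in Y2, 9.51 in CH1 and 4.74 in CH2. THAP9 (DAPMA1EVG010982), which is related to transposases, had 282 CPM in Y2, 37.0 in CH1 and 29.6 in CH2 and was counted in 112 barcodes of Y2. Within cluster 2 THAP9 had 531 CPM in Y2, against 48.5 in CH1 and CH2 together. CG6966 (a000003F_p42.183) had 101 CPM in Y2, 12.7 in CH1 and 14.2 in CH2, and 10 barcodes held 79.2% of its Y2 counts.

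Among the lower genes, SULT1C4/ST1 (DAPMA1EVG017211), a sulfotransferase that conjugates small molecules with sulfate, had the largest ratio when 3 counts are taken for any smaller count. It had 38.1 CPM in Y2, against 3476 in CH1 and 3952 in CH2, so that it was 91.2-fold lower than in CH1 (59.0 to 150) and 104-fold lower than in CH2 (67.0 to 170). It was counted in 1.44% of thinned barcodes in Y2, against 14.9% in CH1 and 13.8% in CH2. The difference was found in small barcodes too, with 52.4 CPM in Y2, 953 in CH1 and 898 in CH2 under 100 UMIs. It was smallest in the largest barcodes, where at 2000 or more UMIs the level was 41.2 CPM in Y2, 85.9 in CH1 and 57.2 in CH2, from 5, 23 and 14 counts.

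Cuticle proteins were prominent among the lower genes. CPR49AG (DAPMA1EVG029381), named for a chitin-binding protein of the arthropod cuticle, had 24.8 CPM in Y2, 696 in CH1 and 674 in CH2. A neighbouring identifier, CPR49AG (DAPMA1EVG029383), had 1 count in Y2, 149 in CH1 and 192 in CH2. In the CH libraries the counts lay in few barcodes. The first was counted in 4.46% of kept barcodes of CH1 and 4.78% of CH2, the second in 2.05% and 2.11%. Genes of the same name may share reads, so each of these values is uncertain. Both were lower again at 1000 UMIs, in small barcodes and without cluster 0.

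Of the other lower genes with a symbol, 5 had these values. LRRC15/HAF (DAPMA1EVG028639), a leucine-rich repeat protein, had 1 count in Y2, 352 in CH1 and 542 in CH2. MDGA1/SR (DAPMA1EVG013402), whose symbols name different proteins, had 15.2 CPM in Y2, 360.3 in CH1 and 640.4 in CH2. LGALS3/GALECTIN (m000016F_a4.85), a lectin that binds galactosides, had 22.9 CPM in Y2, 441 in CH1 and 471 in CH2. NTM/DIP (DAPMA1EVG019029), an adhesion protein of the immunoglobulin family, had 1 count in Y2, 103 in CH1 and 113 in CH2. LRRTM1/CG18095 (DAPMA1EVG021854) had 9.53 CPM in Y2, 184 in CH1 and 160.1 in CH2. LRRC15/HAF and MDGA1/SR were among the leading genes of cluster 5, which held 2 barcodes of Y2, 47 of CH1 and 70 of CH2.

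Some lower genes had few or no counts in Y2. FTH1/FER2LCH (DAPMA1EVG022333), a ferritin subunit of iron storage, had 0 counts in Y2, 92 in CH1 and 108 in CH2, and was at least 17.0-fold and 22.4-fold lower with 3 counts taken for the 0. ZBED1 (m000061F_s4.86), related to transposases, had 0, 88 and 93 counts in Y2, CH1 and CH2. s000003F_p23.19, without a symbol, had 0, 180 and 180. DAPMA1EVG017566, also without a symbol, had 2, 249 and 291, and was counted in only 1.45% of kept barcodes of CH1 and 1.40% of CH2.

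After SULT1C4/ST1, the lower genes with the most counts in CH1 and CH2 were these 4. RNASET2/RNASEX25 (m000028F_a0.112), an acid ribonuclease, had 528 CPM in Y2, 3278 in CH1 and 3842 in CH2, and was counted in 13.3% of thinned barcodes in Y2, 48.4% in CH1 and 52.9% in CH2. IMPDH1/RAS (DAPMA1EVG030837), an enzyme of guanine nucleotide synthesis, had 297 CPM in Y2, 2564 in CH1 and 2450 in CH2. DAPMA1EVG014912, with no symbol, had 204 CPM in Y2, 2438 in CH1 and 3041 in CH2. MED24/MED24 (DAPMA1EVG032861), a subunit of the Mediator complex of transcription, had 377 CPM in Y2, 1858 in CH1 and 2168 in CH2. RNASET2/RNASEX25 and MED24/MED24 were not called at 1000 UMIs, and the others were.

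Gene lists were read against the median log2 ratio of all genes, -0.56, and against the shares of all genes called, 3.42% higher and 7.06% lower. A gene entered a list when either its human or its fly symbol matched. Mitochondrially encoded genes, which code for respiratory chain subunits inside the organelle, were above both other libraries in Y2 for 5 of 5 genes compared, with a median log2 ratio of 2.16. Only MT-CO2/MT:COII (m000184F_s0.2) was called, with 122 CPM in Y2, 28.5 in CH1 and 14.2 in CH2. The most abundant, MT-ND1 (s000357F_p0.2), stood at 22190 CPM in Y2, 6201 in CH1 and 3488 in CH2. The summed level of the list was 26615 CPM in Y2, 7462 in CH1 and 4345 in CH2. In barcodes under 100 UMIs the order turned round, with 27851 CPM in Y2, 42714 in CH1 and 37140 in CH2. The median was 2.07 at 1000 UMIs and 0.74 over 4 genes without cluster 0.

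Of the respiratory chain genes of the nucleus, the direction was the opposite. Of 31 compared, none was called and 29 were below both CH1 and CH2, with a median of -1.13, and -0.58 at 1000 UMIs. ATP5F1A/BLW (DAPMA1EVG030246), a subunit of ATP synthase, had 503 CPM in Y2, 1233 in CH1 and 1218 in CH2.

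Genes used by nearly every cell were mostly below CH1 and CH2, most lists by more than all genes. Cytosolic ribosomal proteins were below both libraries for 61 of 62 genes, and 1 was called lower, RPL22/RPL22 (g000004F_p40.16) with 111 CPM in Y2, 639 in CH1 and 694 in CH2. Their median was -0.78 and their summed level 30626 CPM in Y2, 51914 in CH1 and 53726 in CH2. Without cluster 0 the median was -0.25, beside -0.10 for all genes. Of 35 translation factors none was called (median -0.54), and of 30 proteasome genes 1 was lower (-0.79). Of 30 chaperones, which fold proteins, 1 was lower (-0.90). Of 26 genes of the secretory pathway none was called (-0.79), and of 23 spliceosome genes 1 was lower (-0.92). None of 7 glycolysis genes (-1.07), 6 tubulin genes (-0.95) and 8 histone genes (-1.40) was called. Of 4 early response genes 1 was lower, MDGA1/SR by its fly symbol (-0.54). Among the lists of this paragraph, only the proteasome genes had a summed level in Y2 above both CH1 and CH2. It was 2946 CPM in Y2, 2872 in CH1 and 2863 in CH2, and 9 of the 30 genes lay above both.

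Ferritin and antioxidant genes, which store iron and remove reactive oxygen, had 4 of 19 genes lower and none higher, with a median of -1.38 (-1.15 at 1000 UMIs). SOD1/SOD1 (DAPMA1EVG034043), a superoxide dismutase, had 179 CPM in Y2, 2201 in CH1 and 1574 in CH2. FTHL17/FER1HCH (DAPMA1EVG022329), a ferritin heavy chain, had 3 counts in Y2, 77 in CH1 and 185 in CH2. The others lower were FTH1/FER2LCH, given above, and SOD2/SOD2 (DAPMA1EVG017642) with 15.2 CPM in Y2, 82.4 in CH1 and 71.2 in CH2. The summed level was 3674 CPM in Y2, 12795 in CH1 and 12167 in CH2. Globins, which carry oxygen in Daphnia hemolymph, had 3 genes compared and none called. Their median was 0.11 at 500 UMIs, -0.48 at 1000 UMIs and -0.61 without cluster 0, and their summed level 406 CPM in Y2, 796 in CH1 and 602 in CH2.

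Cuticle and epidermis genes had the lowest median of the lists. Of 35 compared, 12 were lower and 1 higher, with a median of -1.86, and -1.97 at 1000 UMIs, where 9 were lower. Of the 35, 24 lay below both CH1 and CH2 and 10 above both. The summed level of the list differed less, at 5980 CPM in Y2, 6728 in CH1 and 8616 in CH2. These genes code for chitin-binding proteins, chitin synthesis and chitinases. The 12 were 4 genes named CPR49AG, 2 named CPR78CC, 1 each named CPR49AA, CPR49AE and EDG78E, and 3 chitinases, and the higher one was the chitinase CHIT1/CHT10 given above. CPR49AG (DAPMA1EVG029378) had 122 CPM in Y2, 991 in CH1 and 968 in CH2. The cuticle-like cluster held 4.13% of the barcodes of Y2, against 2.17% in CH1 and 2.81% in CH2. Cluster 20, unnamed but with 11 counted cuticle markers, held 1 barcode of Y2 (0.180%), 9 of CH1 (1.08%) and 7 of CH2 (0.983%). Fewer cells of a type and less RNA per cell cannot be told apart in the library sums.

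The muscle list stood above the median of all genes. Of 15 sarcomere genes 2 were higher and 11 lay above both libraries, with a median of 1.35, and 0.80 at 1000 UMIs. TNNT3/UP (DAPMA1EVG015072), troponin T of the thin filament, had 127.7 CPM in Y2, 19.0 in CH1 and 24.9 in CH2. CNN3/CG5023 (DAPMA1EVG027908), a calponin, had 97.2 CPM in Y2, 13.7 in CH1 and 16.6 in CH2. TTN/SLS (DAPMA1EVG027627), a titin-like spring of the sarcomere, was not called, with 989 CPM in Y2, 521 in CH1 and 613 in CH2. In barcodes under 100 UMIs the list had a median of 1.34.

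Linkers of nucleus, cytoskeleton and membrane had 1 of 24 higher and a median of 1.27. The called gene was ANKRD54/ANK2 (m000075F_s1.64), with 229 CPM in Y2, 48.6 in CH1 and 45.1 in CH2. SYNE1/MSP300 (DAPMA1EVG018311), a nesprin that ties nuclei to actin, had 28646 CPM in Y2, 7803 in CH1 and 5829 in CH2, under 4-fold above CH1. In small barcodes it had 26471 CPM in Y2, 27841 in CH1 and 30755 in CH2. Without cluster 0 it had 11917 CPM in Y2, 5598 in CH1 and 4749 in CH2.

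Basement membrane and hemocyte genes were divided, with 3 of 36 higher, 6 lower and a median of 0.16. Higher were SPINT3/PPN, given above, and 2 peroxidasins. PXDN/CYSU (DAPMA1EVG018456) had 1353 CPM in Y2, 290 in CH1 and 260 in CH2. Lower were 2 other peroxidases, 2 collagens, a transglutaminase and the papilin PAPLN/PPN (DAPMA1EVG018391), with 173 CPM in Y2, 1137 in CH1 and 1850 in CH2.

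The digestive and lipid lists had lower genes and no higher one at 500 UMIs. Of 36 digestive enzymes 4 were lower, among them RNASET2/RNASEX25 and the protease CTRL/CG10472 (DAPMA1EVG019741) with 21.0 CPM in Y2, 185 in CH1 and 177 in CH2. Their median was -0.77, and at 1000 UMIs 2 were higher and 2 lower. Of 24 lipid transport and storage genes 4 were lower, with a median of -1.23. FABP3/FABP (DAPMA1EVG014822), which binds fatty acids, had 339 CPM in Y2, 1766 in CH1 and 1726 in CH2. APOD/NLAZ (DAPMA1EVG016680), a lipid-carrying lipocalin, had 164 CPM in Y2, 916 in CH1 and 1079 in CH2. Neither of these was called without cluster 0.

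The lists of nerve, eye and dividing cells had few or no genes called. None of 24 neuron genes was called (median -0.12, and 0.15 at 1000 UMIs). Of 15 photoreceptor genes 2 were higher (-0.13), MYO3A/NINAC (DAPMA1EVG011379) with 81.9 CPM in Y2, 18.0 in CH1 and 14.2 in CH2, and the channel TRPC4/TRPGAMMA (DAPMA1EVG025115) with 356 CPM in Y2, 86.6 in CH1 and 68.8 in CH2. At 1000 UMIs none of the 9 photoreceptor genes then compared was called, and MYO3A/NINAC had too few counts. None of 23 genes of DNA replication and mitosis (-0.34), 10 of the cohesin family (-0.31) and 13 of ecdysteroid and juvenile hormone signalling (-0.08) was called. At 1000 UMIs these medians were 0.03, 0.29 and 0.63, and without cluster 0 the median was -0.16 for photoreceptor genes and -0.10 for all genes. Of 23 ion transport genes 1 was lower (-0.79), and of 11 germline genes none was called (-0.73). Of 9 genes listed with the transcription factors CAS and TJ, 1 was higher (-0.23), the glutamate receptor GRIA4/GRIK (DAPMA1EVG023591) with 213 CPM in Y2, 46.5 in CH1 and 49.8 in CH2. It was not called at 1000 UMIs, and neither was any other of the 8 genes compared there.

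Of 3 Hox genes, which set identity along the body axis, none was called. HOXA5/SCR (DAPMA1EVG033226) had 126 CPM in Y2, 31.7 in CH1 and 29.6 in CH2, and HOXA7/ANTP (DAPMA1EVG033221) 160.1 CPM in Y2, 72.9 in CH1 and 61.7 in CH2. HOXD3/ANTP (DAPMA1EVG033219) had 26.7 CPM in Y2, 63.4 in CH1 and 68.8 in CH2. No gene of the doublesex list, a switch of sex development, had 50 counts.

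**Figure D5:**
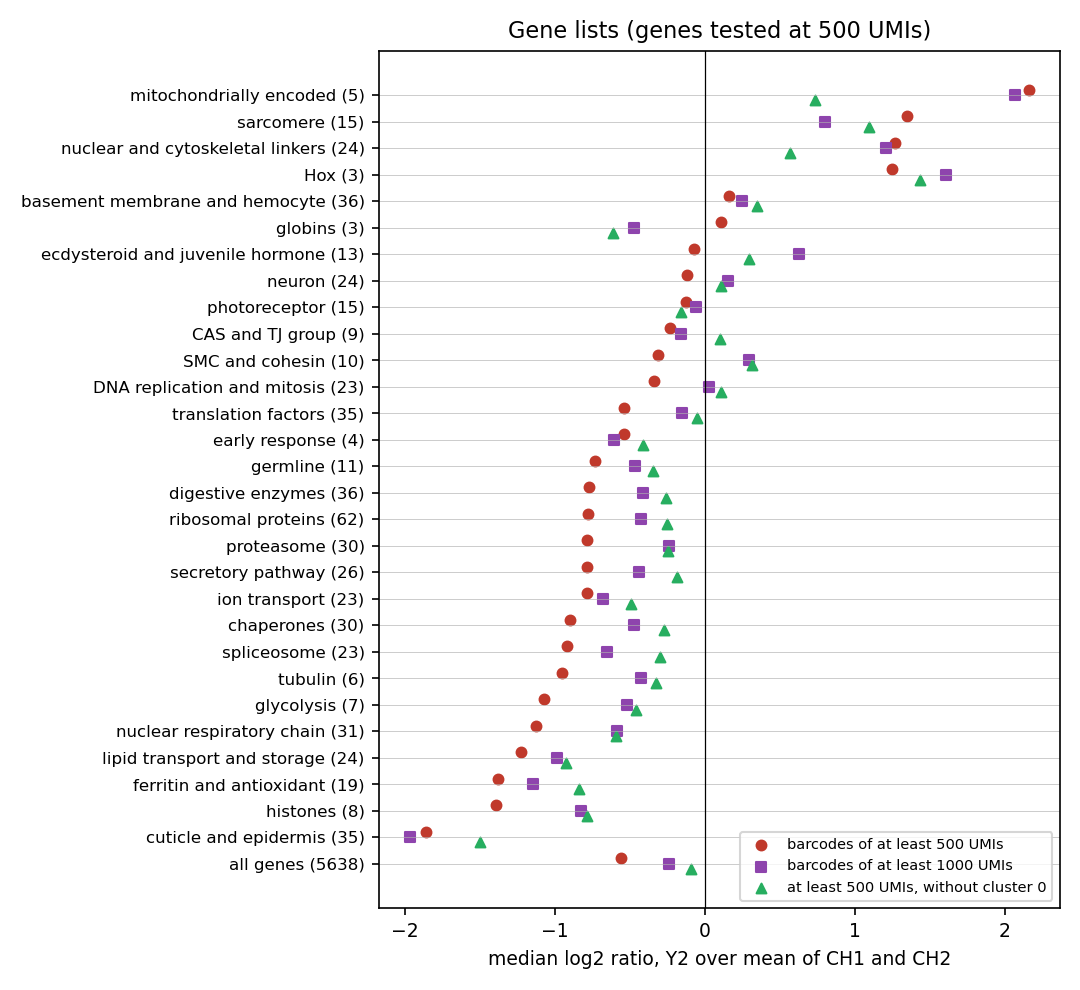
Median log2 ratio of Y2 over the mean of CH1 and CH2 (horizontal axis) for each gene list with at least 3 genes compared (vertical axis, number of genes in brackets), at 500 UMIs (circles), at 1000 UMIs (squares) and at 500 UMIs without cluster 0 (triangles). All genes have medians of -0.56, -0.24 and -0.10; mitochondrially encoded genes stand highest at 2.16 and cuticle and epidermis genes lowest at -1.86 at 500 UMIs.

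Set against the small barcodes, the higher genes differed among themselves. The genes spread over the barcodes of Y2, such as PCGF2/PSC and KCNB2/SHAB, had like levels in the small barcodes of all 3 libraries. Genes such as m000008F_s17.30 and SPINK1/FS had at most 3 counts in any size class of CH1 or CH2. The part of free RNA in the difference between libraries was not tested.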

How the data were processed

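The authors deposited a matrix of whole-number counts per gene and barcode, a barcode list with a library code and a gene list. Integer entries are declared per the file headers, and the values show no normalisation. The aligner, genome build, annotation and UMI collapsing are not given in the sources used here. Counts are called UMIs because inDrops reads carry them. All 147456 listed barcodes of each library were read, holding 2989030 UMIs in Y2, 4795144 in CH1 and 4282984 in CH2.

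Raw counts of kept barcodes were summed per library and scaled to CPM, and ratios used a floor of 3 counts (5.72 CPM in Y2, 3.17 in CH1 and 3.56 in CH2). Intervals at 95% are exact (Poisson for levels, conditional binomial for ratios, Clopper-Pearson for shares). No test between libraries was run, since Y2 is 1 library. The procedure was tested on simulated data. Clustering used scanpy 1.11.5 and leidenalg 0.10.2 (10000 counts per cell, 2000 variable genes without the called ones, 30 components, 15 neighbours, resolution 1). A marker was counted where it was at least 4-fold above the other clusters and in 10% of barcodes. A cluster was named with at least 6 markers counted, 1 or more in its top 10 genes and no other class with more; the minimum of 6 was set after the clusters were seen. Scrublet called 1 barcode of Y2, 5 of CH1 and 4 of CH2, and none was removed. TMM factors came from edgeR 4.0.16.

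The libraries and the gene lists were chosen with earlier results of these data known. Named genes were the 10 highest and 10 lowest with a symbol by the ratio of Y2 to the nearer of CH1 and CH2, the 2 highest and 2 lowest without, the 5 with most counts in each direction and the 3 with most counts in each list, not all of which are printed. The members of a list that were called were added after their values were seen. In the gene list 17518 of 33957 genes share an identifier with another, and summing such copies gave 170 higher and 367 lower genes. No identifier matched the RefSeq table of assembly ASM2063170v1.1, so no sequence or position is given.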

Additional observations from a re-analysis of the deposited data

Results flagged for a closer look

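Of the 10 higher genes with a symbol and the highest ratio to the nearer of CH1 and CH2, 6 were at least 4-fold above CH1 and CH2 also in the mixed sample, which the comparison did not use. They had 21.9 CPM (SPINK1/FS), 119 CPM (CHIT1/CHT10), 145 CPM (SUSD2/MESH), 331 CPM (POGZ/ROW), 837 CPM (THAP9) and 1260 CPM (SPINT3/PPN) in the kept barcodes of that sample. These levels pool its libraries, which differed. SPINT3/PPN had 3249 CPM in library FYH and 13.0 in MY2, and THAP9 had 588 in FYH and 1614 in MY2. The 5 higher genes with the most counts in Y2 were below CH1 and CH2 there. PCGF2/PSC had 82.0 CPM, HHEX/CG7920 86.7, KCNB2/SHAB 35.3, m000042F_s7.60 28.8 and s000014F_p19.31 0.720. The deposited barcodes of that sample were filtered in another way, and its levels are set beside those of the young sample with no test. The CH1 and CH2 levels used here are those by which the genes were picked, which favours a high ratio to them. The count of 6 is therefore a description. The share of all genes at least 4-fold above both CH libraries was not computed for the mixed sample. The 2 genes with the highest ratios and no symbol had 0.720 CPM (m000008F_s17.30) and 1.44 CPM (DAPMA1EVG016034) there, near or below its floor of 1.08 CPM.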

How the results depend on the processing

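Of 320 recomputed ratios of 32 named genes under 10 alternatives, none changed sign, and 105 moved by more than their counting interval. These 32 were picked among the called genes and the alternatives reuse the same counts, so a change of sign was unlikely from the start. Of 290 recomputed list medians, 183 moved by more than the spread between CH1 and CH2, and some, such as that of the globins, changed sign. The main counts were 193 higher and 398 lower genes. Higher genes were 88 at 300 UMIs, 104 with every listed barcode, 361 without CH1, 220 without CH2, 121 without cluster 0, 361 at a minimum of 10 counts, 365 at 1 count, 87 at 200 counts, 933 at 2-fold, 39 at 8-fold and 292 with CH1 and CH2 pooled. Lower genes were 222 at 1000 UMIs, 582 at 300 UMIs and 198 without cluster 0. By minimum count they were 411 at 10 counts, 411 at 1 count and 169 at 200 counts. They were 1530 at 2-fold and 94 at 8-fold, and 345 without CH1 and 353 without CH2. Over all genes, the median log2 ratio (-0.56) was -0.24 at 1000 UMIs, -0.79 at 300 UMIs, -0.25 with every listed barcode, -0.44 with TMM, -0.53 without mitochondrial genes in the total, -0.53 without CH1, -0.49 without CH2, -0.53 with sums thinned to the smallest, -0.10 without cluster 0 and -0.52 without barcodes at shared places. Y2 UMIs in higher genes (9.74%) were 25.1% without CH1 and 10.3% without CH2, and at 2000 or more UMIs (5.72%) 9.02% and 6.16%. The share of Y2 in the cluster meeting the sarcomere rule (1.26%) was 20% at 1000 UMIs, where 26 of its 29 barcodes were those of cluster 0, and the cuticle-like share (4.13%) was 12.4% there and 8.44% at resolution 0.5. The causes were not tested. No paired analysis was possible because the libraries carry no shared replicate numbers and no result comes from a test. Depth limits genes under 50 counts, which were not compared.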
